A study of Mesocricetus auratus with 38 samples.

Results

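The genes described here encode the proteins of the cytosolic ribosome and the factors that start translation, measured in the liver of the Golden Syrian hamster. They were chosen by symbol alone: names beginning with Rpl or Rps and a number, Rplp0 to Rplp2 and Rpsa for the ribosome, and names beginning with Eif1 to Eif6 for the initiation factors, leaving out the kinases named Rps6k and Eif2ak. The rule found 68 of the 14631 symbols in the deposited table, of which 32 were ribosomal and 36 were initiation factors. They are a part of the machinery: of 77 symbols of standard ribosomal proteins, 24 were present. Among the initiation factors there was no symbol Eif4e, Eif1 or Eif5b, and none beginning with Eif2s. After a filter on low counts 63 members were tested among 9099 genes, 29 of them ribosomal and 34 initiation factors. Rpl3l, Rpl10l and Rpl39l, paralogs of ribosomal proteins, and Eif4a1 and Eif5a2 did not pass the filter. Rpl39l had no count in any library, and Eif4a1, a helicase of initiation, had a median of 4.003 estimated counts.

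The ribosome has a small subunit, which reads the mRNA, and a large subunit, which joins amino acids, and each holds ribosomal RNA and many proteins that are made in matched amounts. To start translation, eIF4E binds the cap of an mRNA, eIF4G and the helicase eIF4A join it, eIF3 brings the small subunit, and eIF5 and eIF2B act on eIF2, which carries the first tRNA. The 4E-binding proteins hold eIF4E away from eIF4G, and mTORC1 releases it by phosphorylating them; the same pathway favours translation of ribosomal protein mRNAs, which begin with a terminal oligopyrimidine (TOP) tract.

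Liver RNA of male hamsters, labelled 22 weeks old, was sequenced in 38 libraries. Controls (9 libraries) were fed for 12 weeks on chow in which fat gave 11% of calories. HFD animals (10 libraries) were fed for 12 weeks on a high-fat diet in which fat gave 23%, with cholesterol at 1 g/kg. Per the study, the HFD group received a placebo in the last 4 weeks. Dose I (9 libraries) and Dose II (10 libraries) were animals on the same high-fat diet that in those weeks received combined metabolic activators (CMA). The mixture held L-carnitine, N-acetylcysteine and nicotinamide riboside, at 200 mg/kg each in Dose I and 400 mg/kg each in Dose II, and betaine at 400 and 800 mg/kg. No animals are named in the labels, so a library stands for 1 animal here and p-values measure the spread between these libraries.

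A library is called by a letter for its group (C, H, DI, DII) and its label number, and C105 stood apart from the rest. Depth ran from 4.08e+06 to 1.04e+07 estimated counts a library. Along the first principal component of the 500 most variable genes C105 was at 19.2, the other 8 controls were at -23.1 to -12.7 and HFD was at -8.40 to 7.32. In each library the deviation of a gene's log2 level from its mean over the other 37 libraries or, for those, over all 37 was ranked against transcript length. The rank correlation was -0.36 in C105 and 0.11 to 0.34 in the other controls. It was -0.22 to 0.15 in HFD, -0.28 to 0.11 in Dose I and -0.30 to 0.09 in Dose II, so this trend also differed between groups. The tests below ran over 37 libraries, without C105, and each main count is given again with it. The choice bears on the results. C105 also had the highest level of the 9 controls for 29 of 29 tested ribosomal members and 22 of 34 initiation factors, beside 33.2% of all tested genes. It had the lowest level for 9 initiation factors, beside 3090 of 9045 genes tested over 38 libraries. It was above the HFD median for all 29 ribosomal members, beside 4312 of those 9045 genes. Leaving it out therefore widens the difference between HFD and control for the ribosomal members. Of the hepatocyte markers 9 of 10 were in the table, none at 0 in every library, with a summed level of 112000 to 169000 TPM (an estimate of transcripts, scaled by length and library). Of 8 lymphocyte markers 5 were in the table and none passed the filter, and they summed to 0.588 to 7.82 TPM.

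In HFD liver most ribosomal members rose when C105 was left out of the controls, and few did when it was kept. Of 29 tested ribosomal members 27 rose, none fell and 2 were not called, at an adjusted p under 0.1 (edgeR's quasi-likelihood test, Benjamini-Hochberg over 9099 genes). Of all tested genes 18.1% rose and 18.1% fell. The median log2 fold change was 0.36 over the ribosomal members and 0.01 over all genes. Of 34 initiation factors 6 rose, 7 fell and 21 were not called, with a median log2 fold change of 0.05, and these counts lie near the shares over all genes. With C105 among the controls, 3 ribosomal members rose (Rps12, Rps16 and Rps18-ps5), beside 6.63% of all genes, and the median was 0.14. There 2 initiation factors rose (Eif4ebp3 and Eif1b) and 3 fell (Eif4ebp2, Eif5 and Eif4b), beside 8.94% of all genes that fell. DESeq2 over the same 38 libraries also had 3 ribosomal members that rose, beside 6.33% of all genes, with 9.06% that fell, and limma on TPM had 15, beside 9.95%, with 4.31% that fell. With all 38 libraries kept but weighted by quality, where C105 had a weight of 0.106, 27 rose, beside 18.5% of all genes, with 19% that fell. All 8 members called over 38 libraries were among the 40 called over 37.

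The classes also differ in their summed level. Ribosomal members took 0.461 to 0.573% of estimated counts in the 8 controls (mean 0.503 ± 0.0435, SD) and 0.580 to 0.729% in the 10 HFD libraries (mean 0.678 ± 0.0452). The groups did not overlap in these sums. Initiation factors took 0.293 ± 0.00845% in controls and 0.295 ± 0.0177% in HFD. The ratio of the ribosomal to the initiation sum was 1.72 ± 0.145 in controls, 2.30 ± 0.173 in HFD, 2.47 ± 0.218 in Dose I and 2.55 ± 0.180 in Dose II. In C105 the ribosomal share was 0.968% and the ratio 3.74, above every other library. These are sums over the members present, not over all proteins of the ribosome or all initiation factors. They come from bulk tissue, in which fewer cells of a type and less RNA per cell cannot be told apart.

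**Figure D1:**
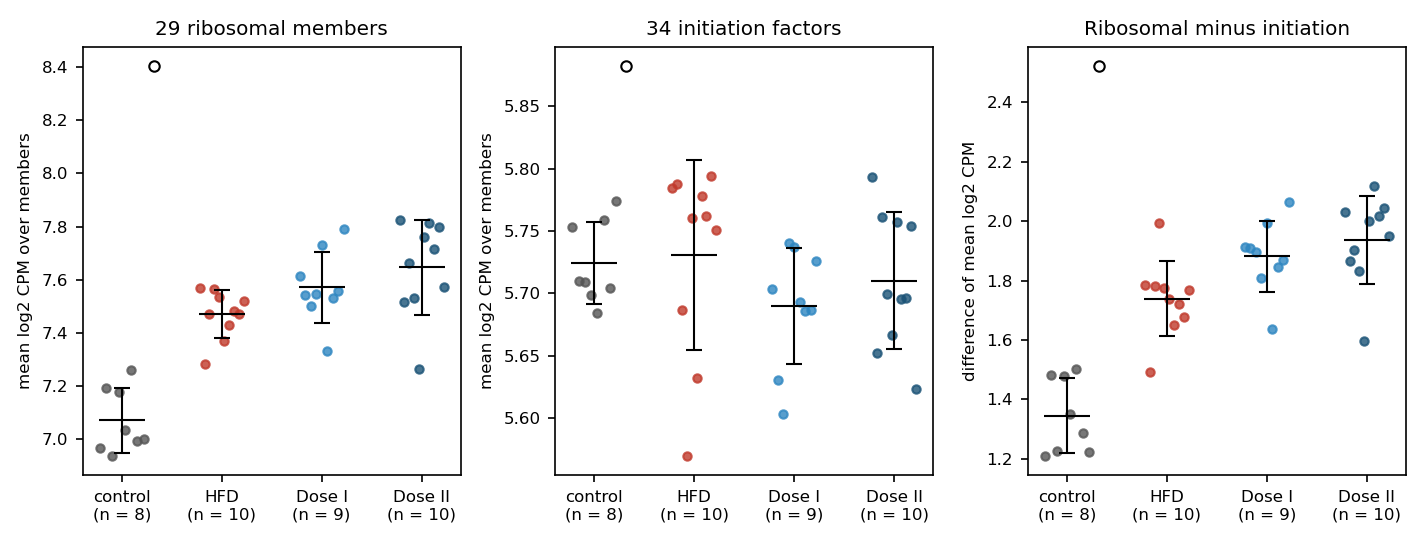
Mean log2 CPM (estimated counts scaled to library size) over 29 ribosomal members, over 34 initiation factors, and their difference, by group. Points are libraries, bars are mean ± SD without C105, and the open circle is C105. The ribosomal means of the 8 controls lie from 6.94 to 7.26 and those of HFD from 7.28 to 7.57, and C105 lies at 8.40.

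Over 37 libraries all 12 tested proteins of the small subunit and all 12 of the large subunit rose, beside 18.1% of all genes. The median log2 fold change was 0.48 in the small and 0.30 in the large subunit, and the difference between subunits was not tested. With C105, 2 of the 12 small subunit proteins and 0 of the 12 large subunit proteins rose, beside 6.63% of all genes. The medians were then 0.23 and 0.10. Rps12, a small subunit protein, was at 139.5 to 189.8 CPM (estimated counts scaled to library size) in the 8 controls (median 153.9) and at 207 to 284 CPM in the 10 HFD libraries (median 262). Every HFD library was above every control. The log2 fold change was 0.70 ± 0.08 (SE; adjusted p = 4.1e-07, edgeR), and 0.41 with C105, which was at 474 CPM (adjusted p = 0.076, edgeR).

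Rpl30, a large subunit protein, was at 156 to 197 CPM in controls (median 169.7) and 206 to 262 CPM in HFD (median 231). Again the groups did not overlap, and Rps28 and Rps10, both of the small subunit, showed the same. These 4 are the members with every HFD library above all 8 controls, beside 0.918% of all genes, and with C105 no member met this, beside 0.155%. Rps28 was at 73.7 to 119.9 CPM in controls and 125.02 to 156 CPM in HFD, and its log2 fold change was 0.61 ± 0.09 (adjusted p = 1.8e-05, edgeR). Rpl30 had 0.42 ± 0.06 (adjusted p = 1.6e-05, edgeR).

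Rps16 and Rps9, of the small subunit, rose by 0.55 ± 0.09 and 0.51 ± 0.09 on the log2 scale (edgeR). Rps18-ps5 carries a symbol in the style of a pseudogene and had the value 0.72 ± 0.11. The control libraries of Rps16, at 117.2 to 163 CPM, overlapped those of HFD, at 154 to 221 CPM. The largest fold was that of Rpl36, a large subunit protein at 3.54 to 15.7 CPM in controls and 12.2 to 49.5 CPM in HFD. It rose by 1.29 ± 0.33 (adjusted p = 0.0035, edgeR), with the widest error of the class, and was at 49.7 CPM in C105. The smallest changes that were called were those of Rpl5, which also binds 5S ribosomal RNA, and Rps4x, with 0.14 each.

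Neither of the members not called is a standard subunit of the ribosome. Rpl22l1, a paralog of Rpl22, had 0.13 ± 0.16 (adjusted p = 0.57, edgeR) and Rpl7l1, a nucleolar factor, had -0.10 ± 0.08 (adjusted p = 0.36, edgeR). Rpl22l1 was at 15.7 to 21.2 CPM in controls and 13.1 to 41.0004 CPM in HFD, where library H114 held the top value. Rpl36al, a paralog of Rpl36a, rose by 0.30 and Rps19bp1, a protein that binds Rps19, rose by 0.28. Reads shared with near-identical genes can reach these counts. Estimated counts lay more than 0.01 from a whole number in at least 1 library for 14 of 29 ribosomal members and 6 of 34 initiation factors, and in at least 30 libraries for 4 ribosomal members, Rpl5, Rpl11, Rpl21 and Rpsa.

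**Figure D2:**
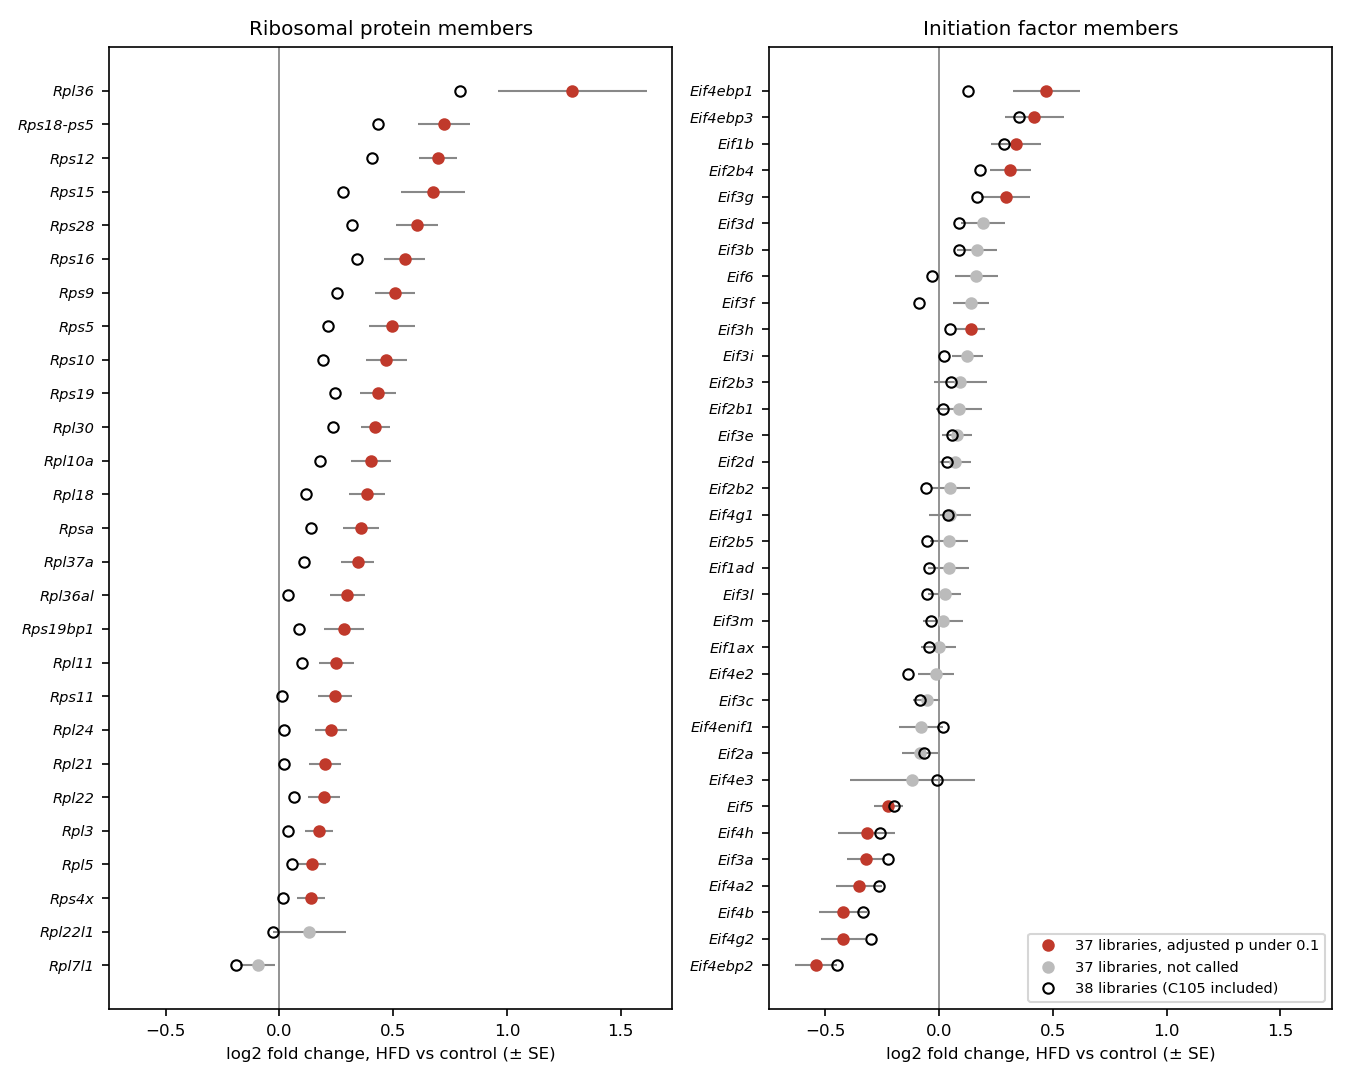
Log2 fold change, HFD against control, of tested members with their SE, over 37 libraries (filled, red where the adjusted p is under 0.1) and over all 38 (open). Ribosomal members other than Rpl7l1 lie at or above 0.13 over 37 libraries and the initiation factors from -0.54 to 0.47.

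Among the initiation factors, the 4E-binding proteins diverged. Eif4ebp1, a 4E-binding protein that mTORC1 phosphorylates, was at 49.002 to 98.8 CPM in the 8 controls (median 63.8) and 72.7 to 131.4 CPM in HFD (median 97.4). The groups overlapped. Its log2 fold change was 0.47 ± 0.15 (adjusted p = 0.015, edgeR), but 0.13 with C105 (adjusted p = 0.73, edgeR), a library that was at 241 CPM.

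Eif4ebp2 went the other way. It was at 32.5 to 39.1 CPM in controls (median 34.9) and 18.6 to 32.9 CPM in HFD (median 23.3), and only the highest HFD library reached the range of the controls. It fell by 0.54 ± 0.09 on the log2 scale (adjusted p = 7.7e-05, edgeR), and by 0.45 with C105 (adjusted p = 0.013, edgeR). C105 was at 14.4 CPM, below every HFD library. Eif4ebp3 was at 6.91 to 11.2 CPM in controls and 8.20 to 17.9 CPM in HFD and rose by 0.42 ± 0.13 (adjusted p = 0.016, edgeR), and by 0.35 with C105 (adjusted p = 0.081, edgeR). Eif4enif1, which carries eIF4E into the nucleus, had -0.08 ± 0.10 (adjusted p = 0.57, edgeR).

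**Figure D3:**
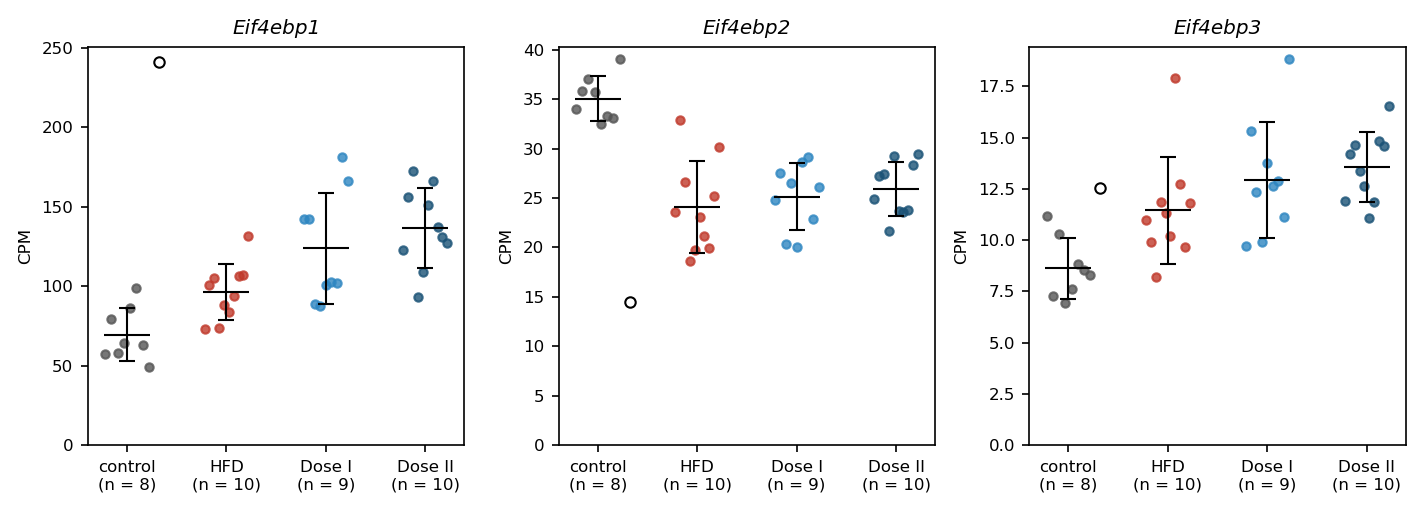
CPM of Eif4ebp1, Eif4ebp2 and Eif4ebp3 in each library by group. Points are libraries, bars are mean ± SD without C105, and the open circle is C105. Eif4ebp2 is lower in HFD, Dose I and Dose II than in controls, and Eif4ebp1 is highest in C105 at 241 CPM.

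A group of 7 tested members held parts of the cap-binding complex, its helpers and relatives of its parts. None of the 7 rose and 4 fell, beside 18.1% of all genes that fell, with a median log2 fold change of -0.32. Eif4e3, among the 7, was low, with a median of 8 estimated counts. With C105 only Eif4b of these 7 fell. The symbol Eif4e, of the cap-binding protein itself, was not present, and Eif4a1 was not tested. Eif4g2, an eIF4G relative that lacks the eIF4E-binding site, was at 295 to 405 CPM in controls and 221 to 315 CPM in HFD and fell by 0.42 ± 0.10 (adjusted p = 0.0013, edgeR, and 0.19 with C105). Eif4b, which stimulates the helicase, fell by 0.42 ± 0.11, from a mean of 106.96 ± 9.53 to 79.8 ± 15.9 CPM. Eif4a2, a helicase, fell by 0.35 and Eif4h, another stimulator of it, by 0.32. Eif4g1, the main scaffold, had 0.05 ± 0.09 and Eif4e2 -0.01 ± 0.08, neither called.

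In eIF3, 2 of 11 rose and 1 fell, beside 18.1% of all genes in each direction, and with C105 none of the 11 was called. Eif3a, its largest subunit, was at 143 to 179 CPM in controls and 99.9 to 147 CPM in HFD, with an overlap of the ranges, and fell by 0.32 ± 0.09 (adjusted p = 0.0050, edgeR). Eif3g, an RNA-binding subunit, rose by 0.29 ± 0.11 (adjusted p = 0.039, edgeR), and Eif3h by 0.14 ± 0.06 (adjusted p = 0.097, edgeR). Of 5 subunits of eIF2B, the exchange factor of eIF2, Eif2b4 rose by 0.31 ± 0.09 (adjusted p = 0.0087, edgeR) and the others had 0.04 to 0.09. Eif5, which triggers GTP hydrolysis on eIF2, fell by 0.22 ± 0.06 (adjusted p = 0.0080, edgeR), and Eif1b, a paralog of the start codon factor eIF1, rose by 0.34 ± 0.11 (adjusted p = 0.020, edgeR). Eif6, which keeps large subunits from joining small ones, had 0.16 ± 0.09 (adjusted p = 0.19, edgeR).

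Ribosomal members also varied together within groups. After the group means were taken out, the correlation of a ribosomal member with the mean of the other ribosomal members had a median of 0.70 over 29 genes and 37 libraries, from 0.15 (Rpl7l1) to 0.91 (Rps16). The same for an initiation factor with the mean of the other initiation factors was 0.28. With the ribosomal mean, initiation factors ran from -0.52 (Eif3a) to 0.65 (Eif3g), with a median of 0.13. The genes share each library's depth and its trend with length, and these are descriptions.

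Members differ in transcript length, and length moved with the change. The ribosomal transcripts are short, at a median percentile of length of 3.20 among tested genes, and the initiation factors lie at 38.2. The rank correlation of the log2 fold change with length, HFD against control, was -0.47 over the 29 ribosomal members, -0.40 over the 34 initiation factors and -0.26 over all 9099 genes. Of 274 other genes no longer than the median ribosomal member, 39.4% rose, with a median log2 fold change of 0.20. With each library's trend with length taken out, 17 ribosomal members rose, beside 15.6% of all genes, with a median of 0.20, and 3 initiation factors rose and 6 fell, beside 16% of all genes that fell. Over these 37 libraries Eif4ebp2 then fell by 0.58, Eif4ebp1 rose by 0.34, and Eif4ebp3, among the shortest members, had 0.20 (adjusted p = 0.28, edgeR). With C105 and the trend taken out, Eif4ebp2 fell by 0.48 and Eif4ebp1 had 0.13 (adjusted p = 0.67, edgeR). There 6 ribosomal members rose, beside 6.97%, and Rpl7l1 fell, beside 9.14%. Of 38 tested genes with long transcripts that are used in most cells, 2 rose and 24 fell on HFD, with a median log2 fold change of -0.30, and with C105 none rose and 9 fell. The part of length in the members' changes beyond this adjustment was not tested.

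**Figure D4:**
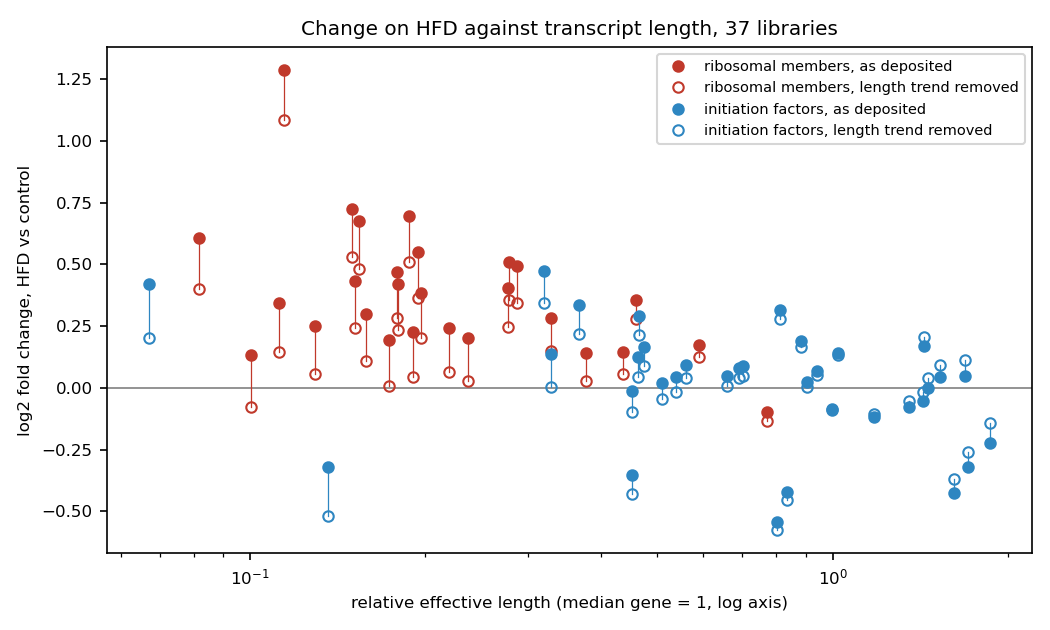
Log2 fold change, HFD against control over 37 libraries, against relative effective length (log axis, median gene at 1). Filled points are the values as deposited and open points those with the length trend removed; red marks ribosomal members and blue initiation factors. The ribosomal members lie left of the median gene, at up to 0.770.

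Other genes of translation were set beside the 18.1% of all genes that rose and the 18.1% that fell. Of 8 tested TOP mRNAs outside the member list 4 rose and none fell. Fau, whose product is a small subunit protein made as a fusion, rose by 0.42, Eef1b2 by 0.28, Eef2, the translocation factor, by 0.29 and Tpt1 by 0.26, while Eef1a1 had 0.01. Of 70 ribosome biogenesis factors 14 rose and 9 fell, with Utp20, of small subunit processing, at -1.08, Gnl3l at -0.59 and Rrp9 at 0.52. Of 11 elongation, termination and recycling factors 4 rose and 3 fell, with Dohh, which helps to make hypusine, at 0.83 and Gspt1, a release factor, at -0.34. Of 29 regulators of translation 3 rose and 9 fell. Ppp1r15b, a cofactor that removes phosphate from eIF2, fell by 0.94, Eif2ak4, a kinase of eIF2, by 0.50, Mtor by 0.27, Larp1, which binds TOP mRNAs, by 0.35, and Akt1s1, an mTORC1 inhibitor, rose by 0.46. With C105, where 6.63% of all genes rose and 8.94% fell, none of the TOP mRNAs and none of the elongation, termination and recycling factors was called, 1 biogenesis factor rose and 1 fell, and 2 regulators rose and 4 fell. The proteins of the mitochondrial ribosome, a separate machine, rose in 44 of 67, none fell, and with C105 in 1 of 67.

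Markers of liver cell types were also set beside the 18.1% of all genes that rose and the 18.1% that fell. With C105 these shares were 6.63% and 8.94%. Of 9 tested hepatocyte markers 2 rose and 4 fell on HFD (1 and 2 with C105). Their sum was 145000 to 169000 TPM in the 8 controls, 121000 to 149000 in HFD, 120000 to 137000 in Dose I and 112000 to 135000 in Dose II. Alb, which encodes albumin, took 16.9 to 20.02% of estimated counts in controls and 11.3 to 15.8% in HFD, and these did not overlap. It took 18.5% in C105, 12.1 to 15.2% in Dose I and 10.1 to 14.9% in Dose II. Of 9 Kupffer cell and macrophage markers 6 rose (2 with C105). Their sum was 128.1 to 188 TPM in the 8 controls, 267 in C105, 185 to 306 in HFD, 138.3 to 281 in Dose I and 128.6 to 229.7 in Dose II, and no marker was at 0 in every library. Of the other markers tested, 2 of 7 endothelial and 1 of 4 cholangiocyte markers rose and 1 of 6 stellate markers fell, and with C105 no endothelial or cholangiocyte marker was called and 1 stellate marker fell. The part of these markers in the members' changes was not tested.

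CMA was compared next, at each dose with HFD. At Dose I no member was called, where 0.187% of all genes were. At another threshold, an unadjusted p under 0.05 (edgeR), there were 1 ribosomal member and 3 initiation factors. The share of all genes at that threshold is not given here, so these counts have no background beside them. The median log2 fold change was 0.09 for ribosomal members. At Dose II 6 of 29 ribosomal members rose and none fell, beside 3.37% of all genes that rose, and 28 of 29 had a positive value, with a median of 0.18. These members vary together within groups, so the 28 are not independent. Of 274 other genes no longer than the median ribosomal member, 6.93% rose, with a median of 0.11. Over the ribosomal members the rank correlation of this change with length was -0.36. Over 38 libraries no member was called, where 2.7% of all genes were. At an unadjusted p under 0.05 (edgeR) there were 4 ribosomal members and 5 initiation factors, again with no share of all genes at that threshold. With the length trend removed no ribosomal member rose, beside 2.8% of all genes. The count also ran from 2 to 12 when single libraries were left out, with 12 without DII133 and 10 without H110. It was 2 without H111, H114, H115, H116, H117, H118, DII129, DII134, DII135, DII136 or DII137, and 3 without DII138.

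The 6 were of both subunits. Rpl30 was at 206 to 262 CPM in HFD (median 231), 219 to 301 CPM in Dose I (median 245) and 211 to 289 CPM in Dose II (median 273). Dose II and HFD overlapped. It rose by 0.22 ± 0.06 (adjusted p = 0.031, edgeR), and Rps28 by 0.31 ± 0.09 (adjusted p = 0.040, edgeR). Rpl36 rose by 0.86 ± 0.28, and its Dose II libraries spread from 8.52 to 89.2 CPM. Rpl18 and Rps16 rose by 0.22 and 0.25. Rps12, the leading gene on HFD, had 0.18 ± 0.08 (adjusted p = 0.19, edgeR).

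Eif4ebp1 was the initiation factor that rose at Dose II. It was at 93.2 to 172 CPM (median 134.2) against 72.7 to 131.4 CPM in HFD, with an overlap, and rose by 0.51 ± 0.14 (adjusted p = 0.032, edgeR). With C105 its value was 0.51 and the adjusted p 0.20 (edgeR). Eif4ebp2, low on HFD, was at 21.7 to 29.5 CPM in Dose II, with a log2 fold change against HFD of 0.11 ± 0.09. Eif4enif1 fell by 0.28 ± 0.09 (adjusted p = 0.088, edgeR), beside 2.25% of all genes that fell. It lost the call without any of H114, H116, H117, DII135, DII136 or DII138. No member was called between Dose II and Dose I, and 0% of all genes. At an unadjusted p under 0.05 (edgeR), a threshold with no share of all genes given here, there were 0 ribosomal members and 1 initiation factor. Dose II minus Dose I had a median of 0.08 over the ribosomal members.

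**Figure D5:**
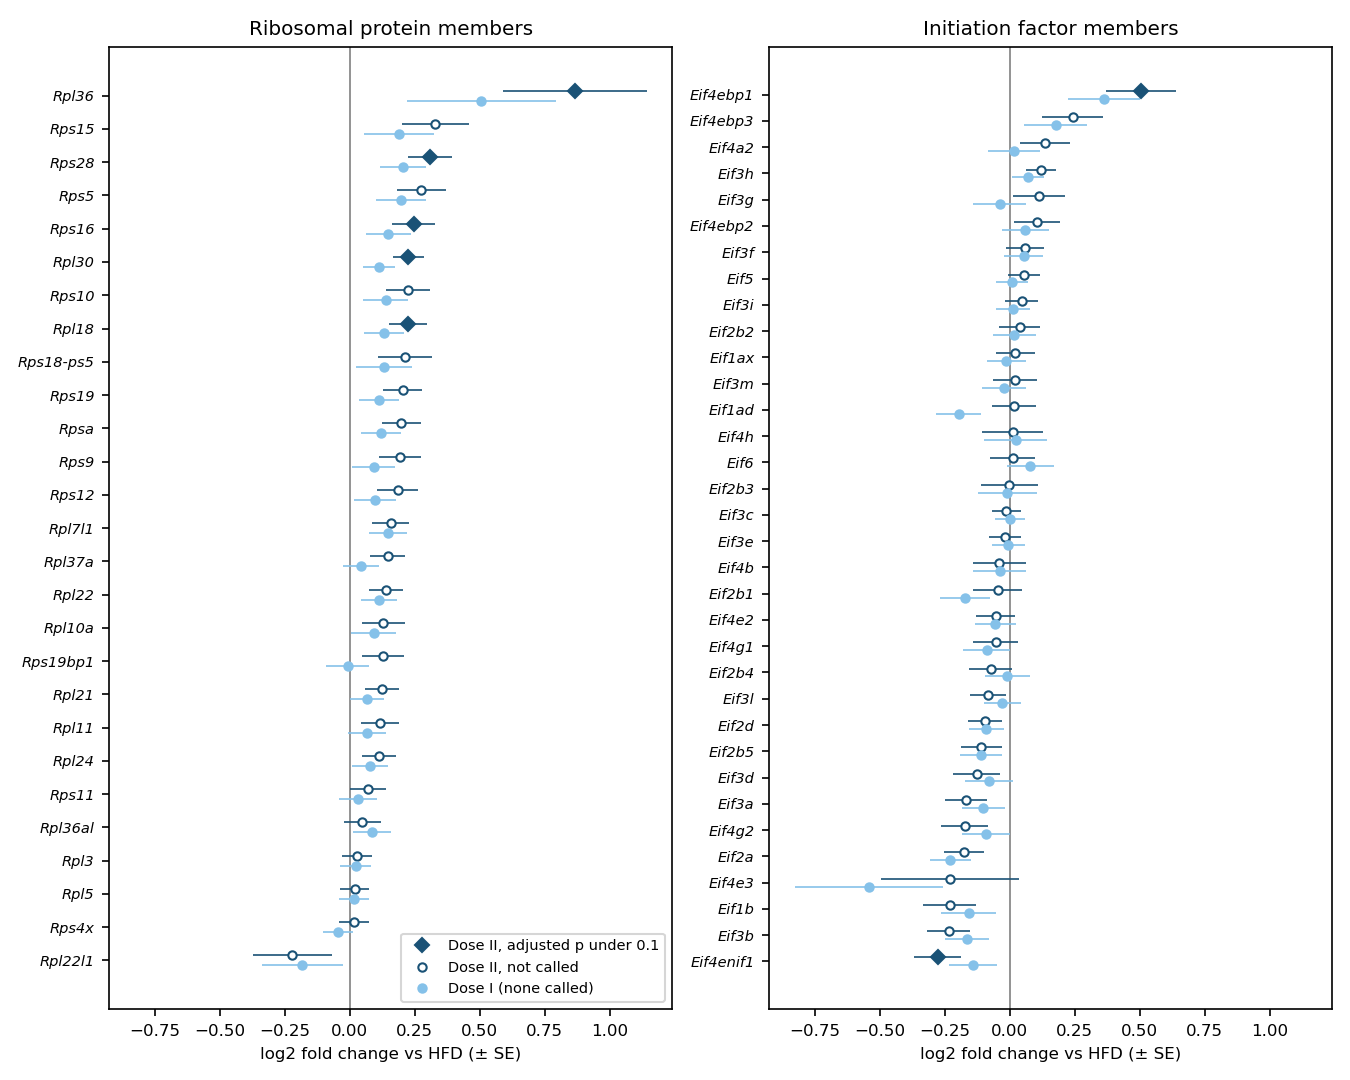
Log2 fold change against HFD of tested members at Dose II (dark) and Dose I (light), with SE, over 37 libraries. Diamonds are members called at Dose II. Ribosomal members have a median of 0.18 at Dose II and 0.09 at Dose I.

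Each CMA group was also compared with the controls, which the comparison of HFD with control shares. In Dose II 27 of 29 ribosomal members rose, beside 23.9% of all genes, with a median log2 fold change of 0.53, and in Dose I 26 rose, beside 20.6%, with a median of 0.48. Rps12 had 0.88 ± 0.09 in Dose II, and Eif4ebp1 0.98 ± 0.15. Of the initiation factors 7 rose and 9 fell in Dose II, beside 23.4% of all genes that fell, and 7 rose and 10 fell in Dose I, beside 20.1%. In Dose II every library was below every one of the 8 controls for Eif3a, Eif4b, Eif4ebp2 and Eif4g2, beside 2.78% of all genes, and above for 6 ribosomal members, Rpl18, Rpl30, Rpl37a, Rps12 and Rpsa among them, beside 2.21%. With C105 among the controls no member met either, beside 0.376% of all genes below and 0.464% above. With C105, 24 of the 63 tested members were called in Dose II against control, beside 32.9% of all genes in either direction. In Dose I 17 of the 63 were called, beside 21.8%. All were among the 43 called without C105 in the same comparison. Ribosomal members that rose with C105 numbered 16 of 29 in Dose II (median 0.33) and 9 of 29 in Dose I (median 0.25).

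Levels per transcript length differed widely. Over the 37 libraries the mean TPM of ribosomal members had a median of 525, from 33.4 for Rpl7l1 to 1117 for Rpl37a, of the large subunit. That of initiation factors had a median of 40.7, from 0.510 for Eif4e3, a cap-binding relative, to 195 for Eif4a2. Rpl37a was at 793 to 1028 TPM in the 8 controls, 1712 TPM in C105 and 1033 to 1275 TPM in HFD. In CPM the 8 controls and HFD overlapped, with the highest control at 254.3 CPM and the lowest HFD library at 253.6 CPM. The share of all genes that were apart in TPM is not given here. Eif4a2 was at 178 to 272 TPM in controls and had a median of 196 and a maximum of 226 TPM in HFD, so that the groups overlapped.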

How the data were processed

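Per the labels, 38 liver libraries fell into 4 groups. The authors ran kallisto on MesAur1.0 (release 101) and deposited estimated counts (not normalized) and TPM for 14631 symbols. The kit, strand setting and kallisto version are not given in the sources used here. The study states that a control sample was removed after a principal component analysis, and plots 37 hamsters without naming that sample. C105 was left out here because it lies far from the other controls on the first principal component and in its trend with transcript length. Rounded estimated counts went through filterByExpr, TMM and the quasi-likelihood F test of edgeR 4.0.16 (R 4.3.3), with a coefficient for each of the 4 groups. A gene was called when its p, adjusted by Benjamini-Hochberg over all tested genes, was under 0.1. The SE is the size of the log2 fold change over the square root of F. CPM used TMM factors over 38 libraries, and relative length is the ratio of estimated counts to TPM. The test was tried on simulated counts of 9099 genes, 200 of them changed. At a log2 fold of 1 it found 95% for HFD against control and 91% for Dose II against HFD, and at 0.5 it found 50% and 61%.

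The members, gene lists and tests were chosen with earlier results of these data known. Members are named where their adjusted p was among the smallest of a class in a comparison (6 ribosomal members and 8 initiation factors, if called), with the ribosomal member of largest adjusted p, called initiation factors against the majority direction, members at the extremes of TPM and members with roles of their own, and in other lists up to 3 genes with the smallest adjusted p. Eif4h, Eif4g1, Eif4e2, Rps10, Rpl5, Rps4x, Rps19bp1 and Rpsa were also named after their values were seen, as were Eef1a1, Eef2, Mtor and Larp1. Alternatives were all 38 libraries, DESeq2 1.42.0, RLE, no filter or at least 10 counts in every library, a lowess offset (span 0.3) that takes out each library's trend with length, limma 3.58.1 on log2(TPM + 1) or with voom quality weights, the 2 groups only, 0.05 as the threshold, and leaving out libraries singly. Sequences were not used here, and single values of some members are not reported here, though counts and medians include them.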

Additional observations from a re-analysis of the deposited data

Results flagged for a closer look

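A library far from the others in its group was found 29 times over 27 measures in 4 groups, where chance gives about 1 in 20 groups. Most were C105 in the control group. Many of the measures vary together, so these flags are not separate events and their number cannot be held against that rate. There the ribosomal share of counts was 0.968%, the initiation share 0.259% and the difference of mean log2 CPM 2.52. Its ribosomal members stood at 474 CPM (Rps12), 386 (Rpl30), 287 (Rps28), 325 (Rps18-ps5), 321 (Rps16), 432 (Rps9), 40.1 (Rpl22l1), 537 (Rpl36al), 49.7 (Rpl36) and 627 CPM (Rpl18), all above the other controls. Its initiation factors were high for Eif2b4 (50.2 CPM), Eif4ebp1 (241), Eif3g (85.2), Eif3h (176) and Eif6 (138.4 CPM), and low for Eif4ebp2 (14.4 CPM), Eif4g2 (90.9), Eif4b (47.8), Eif3a (67.6) and Eif4enif1 (5.88 CPM).

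In the other groups, DII133 was low for Rpl30 (211 CPM) and Rps16 (157 CPM), and H113 for Eif4b (45.1 CPM). H114 and DI124 were high for Rpl22l1 (41.0004 and 31.0 CPM), and H116 for Eif4ebp3 (17.9 CPM).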

How the results depend on the processing

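For HFD against control, ribosomal members that rose numbered 27, and 3 over all 38 libraries with edgeR or DESeq2, 17 with the length trend removed, 6 with both (1 fell, Rpl7l1) and 15 by limma on TPM over 38 libraries. Initiation factors that rose numbered 2 over 38 libraries with edgeR, DESeq2 or limma on TPM, 3 without the length trend and 0 with both changes, and those that fell 3 over 38 libraries with edgeR, DESeq2 or edgeR without the length trend and 0 by limma on TPM there. Without 1 library the ribosomal count was 25 to 27, initiation factors that rose 5 to 10 (10 without H115) and those that fell 6 to 7. For Dose II against HFD the ribosomal count was 0 over 38 libraries with every tool listed, with the length trend removed and by limma on TPM, 2 with the 2 groups only or a threshold of 0.05, and 2 to 12 without 1 library. Initiation factors that rose were 0 over 38 libraries and 1 to 2 without 1 library (2 without H116). Those that fell were 2 with DESeq2 or at least 10 counts in every library, 3 by limma on TPM, 0 with no filter, over 38 libraries, with the 2 groups only or at 0.05, and 0 to 2 without 1 library (2 without DI121, DII131, DII133 or DII137). Voom quality weights over 38 libraries gave C105 a weight of 0.106 and 27 ribosomal members that rose. The cause of these changes was not tested.

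Signs were followed over all settings only for the members named by the rule. Among these, signs changed for 5 in HFD against control, of which Rpl36al (0.30) and Eif3h (0.14) had been called over 37 libraries. Over all 34 initiation factors, 21 had a positive value over 37 libraries and 15 over 38. Of the 29 ribosomal members 28 and 27 did. Rpl22l1 had -0.027 over 38 libraries, -0.038 with DESeq2 and -0.042 by limma on TPM there, -0.078 and -0.12 without the length trend (37 and 38 libraries), and -0.037 to 0.19 without 1 library (below 0 without H114). Eif4enif1 had 0.018, 0.013 (DESeq2), 0.034 (no length trend) and 0.041 (limma on TPM), and Eif6 -0.033, -0.0403 (DESeq2) and -0.0402 (no length trend), all over 38 libraries. Eif3h had -0.013 and Rpl36al -6.4e-04 over 38 libraries without the length trend. No paired analysis was possible because the replicate numbers run through all groups and no groups share one.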
